A study of Mus musculus with 18 samples.

Results

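The balance between long-tailed and short-tailed mRNA was compared between the brains of CPEB4 GT/+ and WT mice. For each animal and gene, the log2 level in the ELUTED fraction minus the log2 level in the WASH fraction was taken, and this difference is called the tail-fraction ratio. All ELUTED and WASH arrays of the CPEB4 GT/+ and WT animals entered, which made 8 arrays from 4 animals, of 18 arrays from 6 animals in the series. The CPEB4 GT/+ group was 2 mice that carry 1 GT allele of Cpeb4, and it was set against 2 WT mice. The labels do not expand GT or name the strain, and the series' design text writes the genotype as CPEB4 KOGT/+. All mice were 6 weeks old, with cortex and striatum dissected together. The remaining animals, 2 CPEB4 KO mice of the same age and tissue, lent their spread to the fits and gave an order of genes that the compared animals did not set. Per the labels' protocols, RNA was bound to poly(U) agarose. The WASH fraction, in which short poly(A) tails are enriched, came off in 25% formamide, and the ELUTED fraction, in which long tails are enriched, in 90%. Each was amplified over 21 cycles before hybridisation.

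CPEB4 belongs to the cytoplasmic polyadenylation element-binding proteins, which bind U-rich elements in the 3′ UTRs of mRNAs. In the cytoplasm these proteins recruit enzymes that lengthen or shorten the poly(A) tail, and thereby change how well an mRNA is translated. A ratio above 0 means that a gene's signal was relatively stronger in the long-tail fraction, and a ratio below 0 that it was relatively stronger in the short-tail fraction. The arrays were normalized to each other, so each ratio is relative to the other genes of the same arrays, and the total amount of RNA in a fraction was not measured.

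Markers of the dissected tissue were present. In INPUT, the unfractionated RNA, Slc17a7 of cortical excitatory neurons stood at the 96th percentile of genes and Ppp1r1b of striatal projection neurons at the 89.5th, whereas Gabra6 of cerebellar granule cells lay below the filter on low values. Other markers of these neurons stood lower, Tbr1 at 79.9 and Neurod6 at 37.9 for cortex, and Drd1 at 76.2 and Drd2 at 43.5 for striatum. Pcp2, a marker of cerebellar Purkinje cells, was kept, with an INPUT percentile of 59.3, above Neurod6 and Drd2. Xist was detected, and the Y-linked genes Eif2s3y and Kdm5d were below the filter, in every animal. Some markers of neighbouring tissue varied within a genotype. Ttr, a choroid plexus marker, had INPUT levels of 7.84 and 11.48 in CPEB4 GT/+ animals and 11.24 and 8.93 in WT animals. Pmch, a neuropeptide of the lateral hypothalamus, had INPUT levels of 5.25 and 5.30 in CPEB4 GT/+ animals and 9.23 and 5.16 in WT animals.

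Cpeb4 itself was lower in CPEB4 GT/+ than in WT animals in both fractions. In ELUTED its log2 level was 7.44 and 6.498 in CPEB4 GT/+ animals, against 7.67 and 7.86 in WT animals. In WASH it was 8.20 and 8.40 in CPEB4 GT/+ animals, against 8.73 and 8.75 in WT animals. In INPUT it was 7.31 and 7.002 in CPEB4 GT/+ animals, against 8.15 and 7.62 in WT animals. These levels are given as a description, without a test. The genotypes did not overlap in any fraction, and the same held for the other 2 probe sets of Cpeb4. In bulk tissue, fewer cells that express a gene and less of its RNA per cell cannot be told apart.

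The tail-fraction ratio of Cpeb4, in contrast, overlapped between the genotypes. It was -0.76 and -1.90 in CPEB4 GT/+ animals and -1.06 and -0.89 in WT animals, so 1 CPEB4 GT/+ animal lay above both WT animals and the other below both. The difference was -0.36 ± 0.35 (moderated SE, limma, unadjusted p = 0.337), and the other 2 probe sets gave 0.10 and 0.02. The level of Cpeb4 was thus lower in both fractions, while its ratio did not separate the genotypes.

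**Figure D1:**
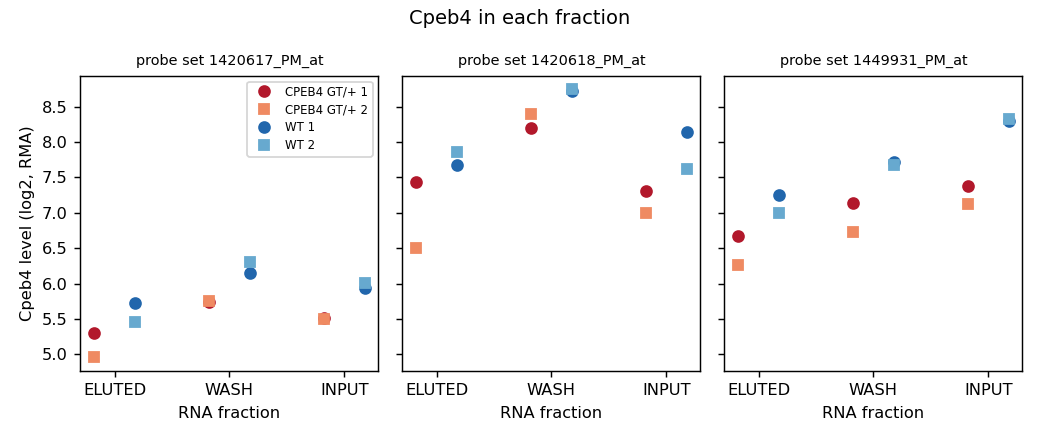
Log2 level of Cpeb4 (y axis) in the ELUTED, WASH and INPUT fractions (x axis) at its 3 probe sets, with 1 point per animal, CPEB4 GT/+ animals to the left of WT animals within each fraction. The CPEB4 GT/+ points lie below the WT points in every fraction and panel.

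The 2 CPEB4 GT/+ animals differed from each other over most of the transcriptome. The SD of the ratio across the 12822 genes kept was 0.41 in CPEB4 GT/+ animal 1 and 0.79 in CPEB4 GT/+ animal 2, against 0.49 in WT animal 1 and 0.41 in WT animal 2. The narrowest and the widest of these 4 animals were thus both CPEB4 GT/+. Outside the comparison, the SD was 0.60 in CPEB4 KO animal 1 and 0.76 in CPEB4 KO animal 2. The latter was near that of CPEB4 GT/+ animal 2, so a wide spread was not particular to that animal. The mean SD was 0.60 ± 0.27 in CPEB4 GT/+ and 0.45 ± 0.05 in WT animals (SD, n = 2 each; exact permutation test, two-sided, p = 1, where 2 against 2 cannot go below 0.333). From the 5th to the 95th percentile of genes, the ratio spanned -0.83 to 0.47 in CPEB4 GT/+ animal 1 and -1.68 to 0.87 in CPEB4 GT/+ animal 2, against -1.03 to 0.53 and -0.87 to 0.46 in the WT animals. The median ratio over all genes was -0.12 and -0.26 in CPEB4 GT/+ animals and -0.17 and -0.14 in WT animals (difference -0.03, exact permutation test, p = 1).

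Quality readings of the arrays also differed between the CPEB4 GT/+ animals. On ELUTED arrays the mean of the hybridisation controls was 10.40 and 10.81 in CPEB4 GT/+ animals and 10.73 and 10.73 in WT animals. On WASH arrays it was 10.31 and 10.10 in CPEB4 GT/+ animals and 10.31 and 10.24 in WT animals. The 3′ probe set of Actb read lower than its 5′ probe set on ELUTED arrays, by a log2 difference of -0.31 and -0.47 in CPEB4 GT/+ animals and -0.41 and -0.40 in WT animals. CPEB4 GT/+ animal 2 was the lowest of the 4 animals and CPEB4 GT/+ animal 1 the highest in this measure. For Gapdh the order was the reverse, at -0.05 and 0.06 in CPEB4 GT/+ animals and -0.04 and -0.03 in WT animals. Whether these readings have a part in the unequal spread was not tested.

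**Figure D2:**
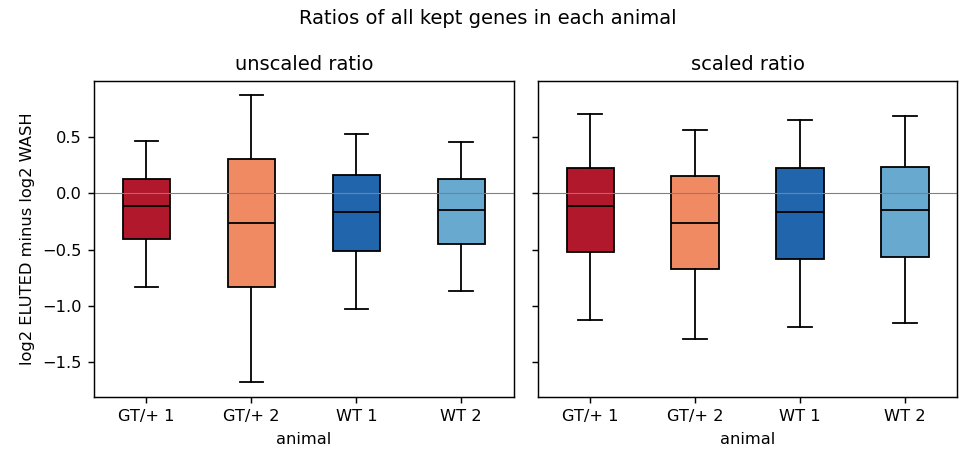
Log2 ELUTED minus log2 WASH of all kept genes (y axis) in each CPEB4 GT/+ and WT animal (x axis), unscaled on the left and scaled to a common spread on the right, where boxes span the quartiles, lines mark the medians and whiskers reach the 5th and 95th percentiles. On the left CPEB4 GT/+ animal 2 spans -1.68 to 0.87, wider than the other 3 animals.

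The wider spread in CPEB4 GT/+ animal 2 was a stretching of an order of genes that the animals shared. Across genes, which are not independent replicates, the ratios of CPEB4 GT/+ animals 1 and 2 correlated at r = 0.853, those of the WT animals at 0.894, and those of CPEB4 GT/+ animal 2 and WT animal 1 at 0.918. The genes were ranked by their mean ratio in the CPEB4 KO animals, which neither compared group contains, and cut into 10 bins of equal size. In the bin with the shortest tails by this order (1283 genes), the median ratio was -0.78 and -1.63 in CPEB4 GT/+ animals, against -0.99 and -0.83 in WT animals. In the bin with the longest tails it was 0.41 and 0.81 in CPEB4 GT/+ animals, against 0.49 and 0.40 in WT animals. At both ends CPEB4 GT/+ animal 2 was the farthest from 0, and CPEB4 GT/+ animal 1 lay close to WT animal 2.

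The stretching came more from ELUTED than from WASH at the short-tail end. In that bin, the median log2 ELUTED minus log2 INPUT was -0.37 and -1.03 in CPEB4 GT/+ animals, against -0.55 and -0.38 in WT animals. The median log2 WASH minus log2 INPUT was 0.42 and 0.58 in CPEB4 GT/+ animals, against 0.44 and 0.45 in WT animals. Genes of this bin were therefore depleted from the long-tail fraction of CPEB4 GT/+ animal 2 more than from that of the other 3 animals.

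**Figure D3:**
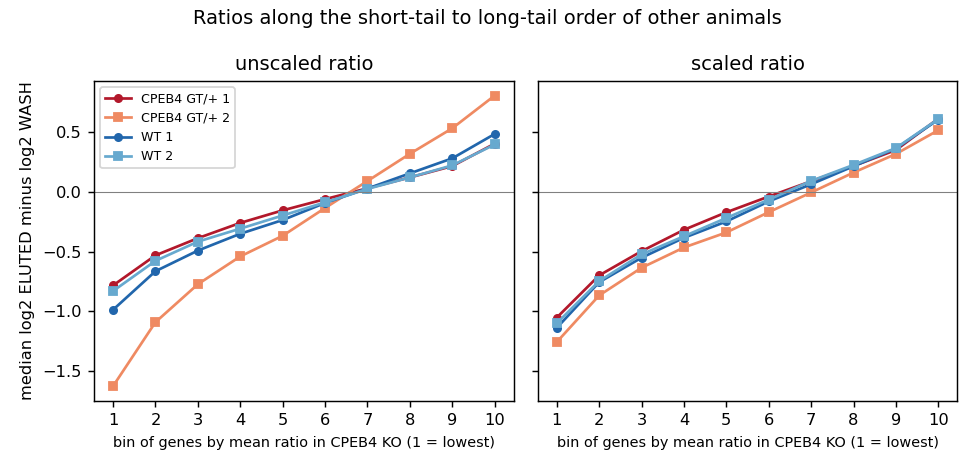
Median log2 ELUTED minus log2 WASH (y axis) in 10 bins of genes ordered from short-tail to long-tail by the mean ratio of the CPEB4 KO animals (x axis), with 1 line per CPEB4 GT/+ and WT animal, unscaled on the left and scaled on the right. On the left the line of CPEB4 GT/+ animal 2 runs from -1.63 to 0.81 and is the steepest of the 4, and on the right the 4 lines lie close together.

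Because an animal with stretched ratios departs from the others at most genes, each animal's ratios were also scaled about their median to a common SD of 0.58, the mean over the 6 animals. The factors were 1.404 and 0.73 in CPEB4 GT/+ animals and 1.19 and 1.39 in WT animals. After scaling, the median in the shortest-tail bin was -1.05 and -1.26 in CPEB4 GT/+ animals and -1.14 and -1.10 in WT animals. The gap between the CPEB4 GT/+ animals was smaller than before, and they still lay on opposite sides of the WT animals.

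No gene passed the test in either form of the ratio. With limma and Benjamini-Hochberg adjustment over 12822 genes, 0 genes were called in the unscaled ratio, where an unadjusted p under 0.05 was met by 49 genes higher (0.382%) and 66 lower (0.515%) in CPEB4 GT/+ and the smallest adjusted p was 0.9996. In the scaled ratio 0 genes were called, the unadjusted level was met by 92 genes higher (0.718%) and 275 lower (2.14%), and the smallest adjusted p was 0.964. This form of the ratio keeps each animal's median. With the scaled ratios also centred on their medians, the unadjusted level was met by 187 genes higher and 220 lower. Without centring, 115 genes unscaled and 367 scaled met it in all, fewer than evenly spread p-values would give at this level. The moderated SE of the difference had a median of 0.21 unscaled and 0.18 scaled, which was larger than the median absolute difference between the genotypes, 0.14 unscaled and 0.11 scaled.

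Gene by gene, the CPEB4 GT/+ animals disagreed more often than they stood together. In the unscaled ratio they lay on opposite sides of both WT animals at 5024 genes (39.2%), above both WT animals at 1435 (11.2%) and below both at 1359 (10.6%). The median absolute difference between the CPEB4 GT/+ animals was 0.35, against 0.13 between the WT animals. In the scaled ratio the animals lay on opposite sides at 3511 genes (27.4%), both above at 1189 (9.27%) and both below at 2080 (16.2%). The low overall median of CPEB4 GT/+ animal 2 is part of these scaled counts. The median absolute difference in the scaled ratio was 0.22 between CPEB4 GT/+ animals and 0.16 between WT animals. Of 2794 genes without overlap in the unscaled and 3269 in the scaled ratio, 1738 were shared, which is 62.2% of the unscaled and 53.2% of the scaled set.

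Genes that combined no overlap with a log2 difference of at least 0.58 were few. The unscaled ratio had 13 higher (0.101% of genes) and 46 lower (0.359%), and the scaled ratio 6 higher (0.0468%) and 25 lower (0.195%), with 12 genes in both sets. The genes described next are those with the smallest unadjusted p among them, up to 10 in each direction and ratio, and none passed the adjusted test.

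The smallest unadjusted p in either ratio belonged to Timm9, a small chaperone of the mitochondrial intermembrane space that guides proteins to the inner membrane. Its ratio was 0.27 and 0.06 in CPEB4 GT/+ animals, against 0.81 and 1.02 in WT animals. The difference was -0.75 ± 0.18 (moderated SE, unadjusted p = 0.00328, adjusted p = 1 by limma) and -1.04 in the scaled ratio (unadjusted p = 0.000114, adjusted p = 0.964 by limma). CPEB4 GT/+ animals had the lower ELUTED level (5.93 and 6.08, against 6.33 and 6.38 in WT) and the higher WASH level (5.66 and 6.02, against 5.52 and 5.36 in WT). These WASH levels are near the highest mean of the nonspecific control probe sets, 5.61, and the other probe set of Timm9 gave a difference of -0.06.

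Zfhx4, a zinc finger and homeobox transcription factor of developing brain, came next among the lower genes. Its ratio was -0.78 and -1.18 in CPEB4 GT/+ animals, against -0.03 and -0.24 in WT animals. The difference was -0.84 ± 0.21 unscaled (unadjusted p = 0.00406) and -0.85 scaled (unadjusted p = 0.00015), and the ratio in the CPEB4 KO animals was -0.81 and -1.11. Its other probe set, below the filter, gave 0.02. At the probe set used, the ELUTED level of Zfhx4 was 6.03 and 6.22 in CPEB4 GT/+ animals, against 6.87 and 6.31 in WT animals. In WASH the genotypes overlapped, at 6.81 and 7.40 in CPEB4 GT/+ animals and 6.90 and 6.55 in WT animals.

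Another 3 genes were named as lower in CPEB4 GT/+ in both forms of the ratio. Hgh1, a co-chaperone known in yeast for folding a translation elongation factor, had ratios of -0.38 and -0.67 in CPEB4 GT/+ animals, against 0.14 and 0.00 in WT animals (difference -0.60, unadjusted p = 0.0126). With INPUT in place of WASH its difference was 0.13, the opposite direction. Ugp2, which makes UDP-glucose for glycogen, had ratios of -0.78 and -1.18 in CPEB4 GT/+ animals, against -0.49 and -0.10 in WT animals (difference -0.68, unadjusted p = 0.0133). BC030500, a protein-coding gene named only by its clone, had ratios of -0.54 and -0.87 in CPEB4 GT/+ animals, against -0.25 and 0.03 in WT animals (difference -0.60). Each had its higher WASH levels in CPEB4 GT/+ animals.

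The remaining lower genes of the unscaled ratio included Snrpf and Rsrc1. Snrpf, the Sm protein F at the core of spliceosomal RNPs, had ratios of -1.18 and -1.72 in CPEB4 GT/+ animals, against -0.79 and -0.92 in WT animals (difference -0.60, unadjusted p = 0.0316). Rsrc1, an arginine- and serine-rich splicing protein, had ratios of -1.42 and -1.69 in CPEB4 GT/+ animals, against -1.06 and -0.86 in WT animals (difference -0.60, unadjusted p = 0.012). After scaling these differences were -0.40 and -0.44. The others were Lratd2 (-0.60), Scn7a, a sodium-sensing channel protein (-0.60), and Smim11, a small membrane protein (-0.64). The other probe sets of Scn7a, below the filter, gave -0.07 and 0.09.

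Among genes higher in CPEB4 GT/+, the smallest unadjusted p in the unscaled ratio belonged to Plcg1, the phospholipase C that acts downstream of growth factor receptors. Its ratio was 1.31 and 1.72 in CPEB4 GT/+ animals, against 0.77 and 0.78 in WT animals. The difference was 0.74 ± 0.20 (unadjusted p = 0.00535) and 0.49 after scaling (unadjusted p = 0.0324), and its other probe set gave 0.19. Zfp280d, a zinc finger protein, had ratios of 1.46 and 1.86 in CPEB4 GT/+ animals, against 1.10 and 0.88 in WT animals (difference 0.68, unadjusted p = 0.0115). Its other probe set, also above the filter, went the other way at -0.37, so the result holds for 1 of 2 probe sets only.

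The other higher genes of the unscaled ratio had differences of 0.58 to 0.69, apart from Hcrt. Grin3b, an NMDA receptor subunit, had ratios of 0.32 and 0.82 in CPEB4 GT/+ animals, against 0.01 and -0.04 in WT animals (difference 0.58, unadjusted p = 0.0284; 0.48 scaled, unadjusted p = 0.009). Itga5, the alpha chain of the fibronectin receptor, had ratios of 1.15 and 1.63 in CPEB4 GT/+ animals, against 0.78 and 0.80 in WT animals. Fxyd4, a modulator of the sodium pump, had ratios of 1.15 and 1.46 in CPEB4 GT/+ animals, against 0.59 and 0.81 in WT animals. In each the 2 CPEB4 GT/+ animals were above the WT animals and animal 2 was the higher. Irx6, a homeobox transcription factor, differed by 0.62, Nudt5, a hydrolase of ADP-ribose, by 0.58, and the long noncoding RNAs 1700066C05Rik and 2610037D02Rik by 0.69 and 0.63. The other probe set of Nudt5, below the filter, gave -0.03.

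Hcrt, the precursor of the hypothalamic peptides called orexins, had the largest difference among the named genes without overlap, and 1 WT animal carried it. Its ratio was 0.16 and 0.58 in CPEB4 GT/+ animals, against -1.26 and -0.04 in WT animals. The difference was 1.02 ± 0.38 (unadjusted p = 0.0262) and 1.04 scaled (unadjusted p = 0.00424). WT animal 1 had a WASH level of 7.89, against 5.96 and 5.74 in CPEB4 GT/+ animals and 6.09 in WT animal 2. The same animal had the high Pmch level in INPUT, and the ratio of Pmch was -0.23 and 0.07 in CPEB4 GT/+ animals, against -2.85 and 0.06 in WT animals. In CPEB4 GT/+ animals Pmch read 5.185 and 5.208 in ELUTED and 5.415 and 5.142 in WASH. In WT animal 2 it read 5.316 in ELUTED and 5.261 in WASH. All of these lie below the highest mean of the nonspecific control probe sets, 5.61, so the Pmch ratios of these animals rest on background values. Without WT animal 2, Hcrt was the only gene called in the scaled ratio (adjusted p = 0.00928 by limma), and without WT animal 1 its difference was 0.41 unscaled and 0.32 scaled. Whether hypothalamic tissue in WT animal 1 has a part in the Hcrt values was not tested.

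In all 20 genes named for the unscaled ratio, CPEB4 GT/+ animal 2, whose ratios are the most stretched, lay farther from the WT animals than CPEB4 GT/+ animal 1. Among the 16 named for the scaled ratio this held for 1 of 6 higher and 4 of 10 lower genes. Only 6 genes were named in both: Timm9, Zfhx4, Hgh1, Ugp2, BC030500 and Hcrt.

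**Figure D4:**
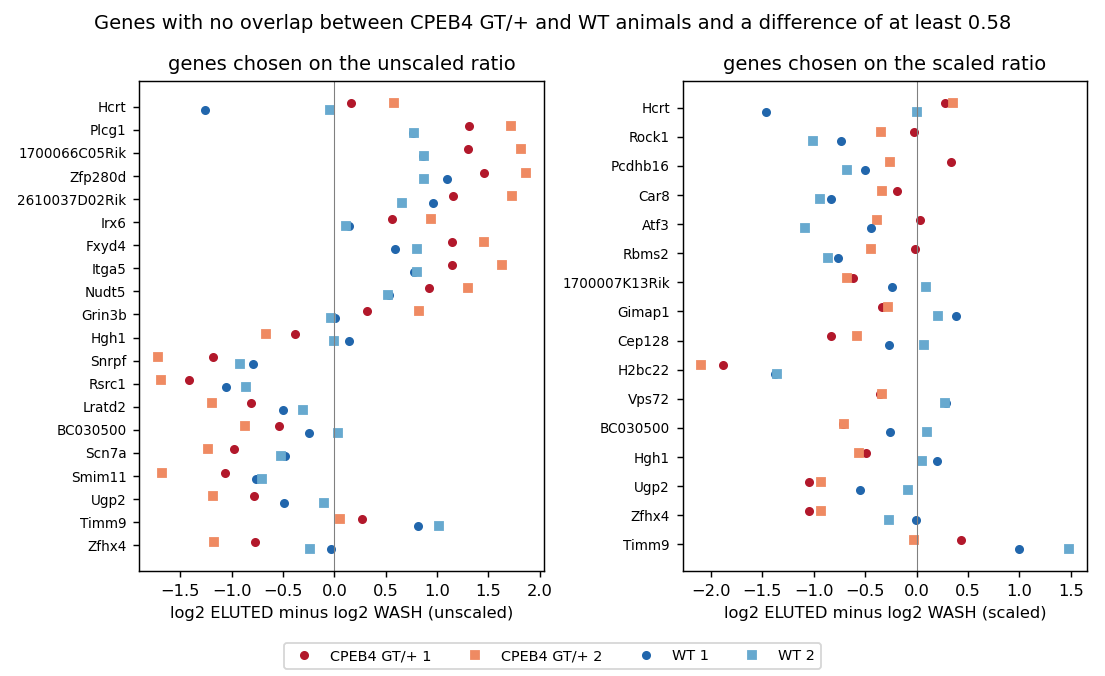
Log2 ELUTED minus log2 WASH (x axis) of the named genes without overlap and with a difference of at least 0.58 (y axis), with 1 point per CPEB4 GT/+ and WT animal, unscaled on the left and scaled on the right. For Hcrt, WT animal 1 stands apart at -1.26 on the left, and for Timm9 the CPEB4 GT/+ points at 0.27 and 0.06 lie below the WT points.

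Another 10 genes were named for the scaled ratio alone. Rock1, a kinase that drives actomyosin contraction, had scaled ratios of -0.03 and -0.34 in CPEB4 GT/+ animals, against -0.73 and -1.01 in WT animals (difference 0.69, unadjusted p = 0.00148). Another 2 probe sets of Rock1 above the filter gave scaled differences of 0.01 and 0.12. Car8, a carbonic anhydrase relative that binds the IP3 receptor, had scaled ratios of -0.20 and -0.33 in CPEB4 GT/+ animals, against -0.83 and -0.94 in WT animals (difference 0.62, unadjusted p = 0.00238). Car8 differed through ELUTED, at 7.33 and 7.24 in CPEB4 GT/+ animals and 6.88 and 6.90 in WT animals, with WASH levels of 7.498 and 7.59 in CPEB4 GT/+ animals and 7.60 and 7.62 in WT animals. Pcdhb16, a protocadherin (0.63), Rbms2, an RNA-binding protein (0.58), and Atf3, a stress-induced transcription factor (0.59), completed the higher scaled genes. The other probe set of Rbms2 above the filter gave -0.10 scaled, the opposite direction, and those of Pcdhb16, below the filter, -0.25 and -0.28. That of Car8, also below the filter, gave 0.10 scaled.

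On the lower side of the scaled ratio were Vps72, a subunit of histone-exchange complexes (-0.63), Gimap1, a GTPase of lymphocytes (-0.60), Cep128, a centriole protein (-0.61), and 1700007K13Rik (-0.58). H2bc22, a histone H2B gene, had scaled ratios of -1.88 and -2.10 in CPEB4 GT/+ animals, against -1.38 and -1.36 in WT animals (difference -0.62, unadjusted p = 0.00274). Histone H2B genes are nearly identical to one another, so the probe set may read several of them, and the other probe set of H2bc22 gave -0.32 scaled. Probe sets of Cep128 above the filter also disagreed, at 0.09 and -0.57 scaled.

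Gene groups were described by their counts. No member of any of the 30 groups with at least 5 kept members was called in either ratio. In 26 of these 30 groups the medians of the CPEB4 GT/+ and WT animals overlapped in the unscaled ratio, and in 29 after scaling. CPEB4 GT/+ animal 2 had the lowest median of the 4 animals in 23 groups, in the unscaled and in the scaled ratio. Its median over all genes was also the lowest of the 4 animals, and scaling kept that median. The count of 23 therefore does not show a shift particular to the groups.

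The tail machinery itself lay on the short-tail side in every animal. Of 20 kept genes of the CPEB family and cytoplasmic polyadenylation, 6 differences were above 0 and 14 below, with a median of -0.11, against -0.03 over all genes, where 43.9% were above and 56.1% below 0 (41.9% and 58.1% in the scaled ratio). The group medians were -0.34 and -0.76 in CPEB4 GT/+ animals and -0.45 and -0.27 in WT animals. Cpeb1, the founding member of the family, had ratios of -0.66 and -1.20 in CPEB4 GT/+ animals, against -0.81 and -0.15 in WT animals (difference -0.45, unadjusted p = 0.149). Aurka, a kinase that phosphorylates CPEB1 in frog oocytes, had ratios of -0.09 and 0.10 in CPEB4 GT/+ animals, against 0.14 and 0.14 in WT animals. After scaling the group median was -0.02.

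Of 31 kept deadenylases and poly(A)-binding proteins, 7 differences were above 0 and 24 below, with a median of -0.07. Btg3, of a family that binds deadenylases, had ratios of -0.78 and -1.50 in CPEB4 GT/+ animals, against -0.73 and -0.57 in WT animals (difference -0.49, unadjusted p = 0.0906). Cnot1, the scaffold of the CCR4-NOT deadenylase, had ratios of -0.57 and -0.93 in CPEB4 GT/+ animals, against -0.47 and -0.43 in WT animals. Pabpc1, the main cytoplasmic poly(A)-binding protein, had ratios of 0.48 and -0.13 in CPEB4 GT/+ animals, against -0.05 and -0.07 in WT animals. Both CPEB4 GT/+ animals lay below both WT animals for Btg3 and Cnot1, and on either side of them for Pabpc1. For Btg3, CPEB4 GT/+ animal 1 at -0.78 was closer to WT animal 1 at -0.73 than to CPEB4 GT/+ animal 2. After scaling, 17 members were above 0 and 14 below (median 0.02).

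Genes of energy metabolism, ribosomes and the proteasome, which lay on the short-tail side in every animal, were below 0 almost without exception in the unscaled ratio. Of 70 nuclear-encoded subunits of oxidative phosphorylation, 69 differences were below 0 (median -0.28). The same was seen for 68 of 69 cytosolic ribosomal proteins (median -0.26), 68 of 73 mitochondrial ribosomal proteins (median -0.26) and 29 of 32 proteasome subunits (median -0.31). The CPEB4 GT/+ animals did not share this. The oxidative phosphorylation medians were -0.60 and -1.55 in CPEB4 GT/+ animals, against -0.82 and -0.73 in WT animals, and the proteasome medians were -0.54 and -1.32 in CPEB4 GT/+ animals, against -0.61 and -0.63 in WT animals.

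CPEB4 GT/+ animal 1 lay above both WT animals in these 4 groups, and CPEB4 GT/+ animal 2 below both. Without CPEB4 GT/+ animal 2 the median differences were 0.15 for oxidative phosphorylation, 0.08 for cytosolic ribosomal proteins, 0.09 for mitochondrial ribosomal proteins and 0.12 for the proteasome. In the scaled ratio the median differences were -0.05 for oxidative phosphorylation, -0.07 for cytosolic and -0.09 for mitochondrial ribosomal proteins, and -0.145 for the proteasome. Members without overlap numbered 0 higher and 7 lower (10%) of 70 in oxidative phosphorylation, 1 higher and 9 lower (13%) of 69 cytosolic and 1 higher and 11 lower (15.1%) of 73 mitochondrial ribosomal proteins, and 0 higher and 1 lower of 32 in the proteasome, beside 11.2% higher and 10.6% lower over all genes. In the scaled ratio they numbered 2 higher and 9 lower in oxidative phosphorylation, 1 and 16 among cytosolic and 3 and 13 among mitochondrial ribosomal proteins, and 0 and 2 in the proteasome, beside 9.27% higher and 16.2% lower over all genes.

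Single members showed the same split between the CPEB4 GT/+ animals. Psmb7, a catalytic subunit of the proteasome, had an ELUTED level of 8.91 and 6.08 in CPEB4 GT/+ animals, against 8.56 and 8.51 in WT animals, and a ratio of -1.02 and -3.75 in CPEB4 GT/+ animals, against -1.39 and -1.29 in WT animals. Uqcrb, a subunit of complex III, had ratios of -1.11 and -3.23 in CPEB4 GT/+ animals, against -1.72 and -1.20 in WT animals. Mrpl50, of the large mitochondrial ribosomal subunit, had ratios of -0.42 and -2.18 in CPEB4 GT/+ animals, against -0.63 and -0.54 in WT animals. Rpl12, of the large cytosolic subunit, had ratios of -1.08 and -2.63 in CPEB4 GT/+ animals, against -1.24 and -1.08 in WT animals. In all 4, CPEB4 GT/+ animal 1 lay above both WT animals and CPEB4 GT/+ animal 2 below both. For Rpl12 this was only just so, at -1.077 in CPEB4 GT/+ animal 1 and -1.080 in WT animal 2. In the scaled ratio of Rpl12, CPEB4 GT/+ animal 1 at -1.465 lay below the WT animals at -1.440 and -1.449.

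Ndufc2, a subunit of complex I, was a member without overlap, though only just in the unscaled ratio. Its ratio was -1.288 and -2.874 in CPEB4 GT/+ animals, against -1.286 and -1.099 in WT animals, and its scaled ratio -1.76 and -2.17 in CPEB4 GT/+ animals, against -1.49 and -1.48 in WT animals (scaled difference -0.48, unadjusted p = 0.0155). Eif4e, the cap-binding initiation factor, lay the other way. Its ratio was 0.40 and 0.63 in CPEB4 GT/+ animals, against 0.20 and -0.09 in WT animals (difference 0.46, unadjusted p = 0.0481; 0.40 scaled). Of 37 kept translation factors, 9 differences were above 0 and 28 below (median -0.08).

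**Figure D5:**
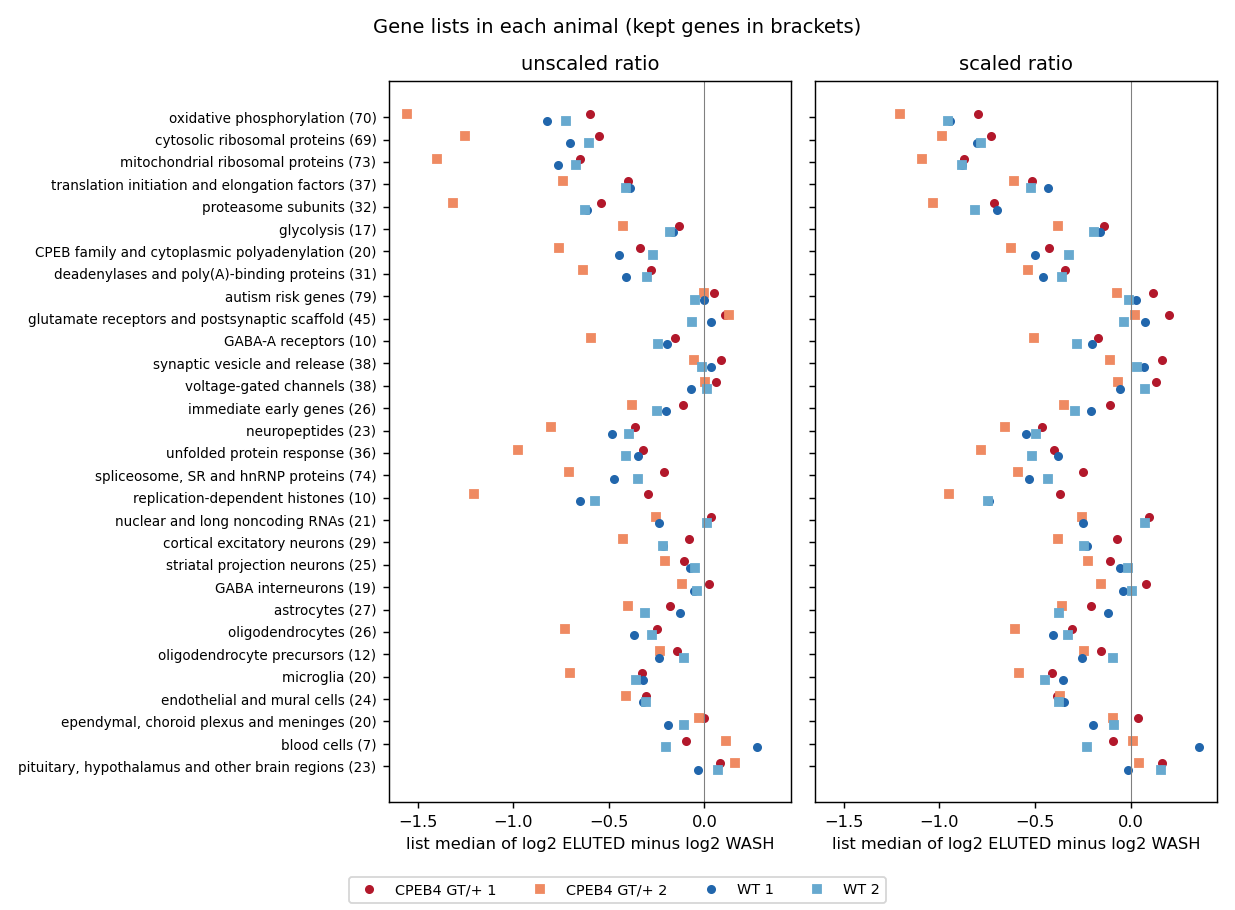
Median log2 ELUTED minus log2 WASH of each gene group (x axis) by group (y axis, number of kept genes in brackets), with 1 point per CPEB4 GT/+ and WT animal, unscaled on the left and scaled on the right. In the short-tail groups at the top, such as oxidative phosphorylation, CPEB4 GT/+ animal 2 at -1.55 lies far to the left of the other 3 animals, and the gap is smaller on the right.

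Genes of the unfolded protein response, in which CPEB4 is known to act in liver, lay below 0 in 30 of 36 cases (median -0.19; -0.03 scaled). Pdia6, a disulfide isomerase of the endoplasmic reticulum, had ratios of -0.44 and -1.07 in CPEB4 GT/+ animals, against -0.34 and -0.34 in WT animals (difference -0.41, unadjusted p = 0.107). Ern1, the stress sensor IRE1, had ratios of 0.38 and 1.02 in CPEB4 GT/+ animals, against 0.76 and 0.82 in WT animals, and overlapped. Its scaled difference was -0.44 (unadjusted p = 0.0194). Other probe sets of Ern1 above the filter gave scaled differences of 0.04 and -0.45. The group medians were -0.32 and -0.97 in CPEB4 GT/+ animals, against -0.35 and -0.41 in WT animals, again with the CPEB4 GT/+ animals on either side of WT.

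The synapse groups did not all lie on the same side. Of 45 kept glutamate receptor and postsynaptic scaffold genes, 32 differences were above 0 and 13 below (median 0.05, against -0.03 over all genes). Without overlap were 12 higher (26.7%) and 5 lower (11.1%), beside 11.2% and 10.6% over all genes. This was 1 of 3 groups whose medians were higher in both CPEB4 GT/+ animals, at 0.11 and 0.13, than in WT animals, at 0.04 and -0.07. The others were markers of ependyma, choroid plexus and meninges (median difference 0.10) and of pituitary, hypothalamus and other brain regions (0.16). After scaling, 22 glutamate receptor and scaffold genes were above 0 and 23 below (median -0.004). Of these, 5 higher and 6 lower were without overlap, beside 9.27% and 16.2% over all genes.

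Within this group, Nlgn1, a postsynaptic adhesion protein, had ratios of 1.39 and 1.66 in CPEB4 GT/+ animals, against 1.21 and 1.08 in WT animals (difference 0.38, unadjusted p = 0.0862; 0.06 scaled). Iqsec2, an exchange factor of the postsynaptic density, had ratios of 0.35 and 0.28 in CPEB4 GT/+ animals, against 0.10 and -0.23 in WT animals (difference 0.38, unadjusted p = 0.074; 0.40 scaled). Grm8, a presynaptic metabotropic glutamate receptor, lay lower, with ratios of -0.99 and -0.70 in CPEB4 GT/+ animals, against -0.38 and -0.29 in WT animals (difference -0.51, unadjusted p = 0.0303; -0.58 scaled). Other probe sets of Iqsec2 gave -0.03 and 0.03.

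Of 38 synaptic vesicle and release genes, 24 differences were above 0 (median 0.03; -0.01 scaled), with 9 higher (23.7%) and 1 lower (2.63%) without overlap, beside 11.2% and 10.6% over all genes. After scaling the counts without overlap were 5 higher and 2 lower, beside 9.27% and 16.2% over all genes. Napb, which helps to take apart SNARE complexes, had ratios of 0.72 and 1.19 in CPEB4 GT/+ animals, against 0.58 and 0.41 in WT animals (difference 0.46, unadjusted p = 0.0563). Other probe sets of Napb above the filter gave 0.32 and 0.06. Of 38 voltage-gated channel genes, 25 were above 0 (median 0.08, scaled 0.02). Without overlap were 5 higher (13.2%) and 1 lower (2.63%), and 7 and 1 after scaling. Of 10 GABA-A receptor genes, 3 were above 0 and 7 below (median -0.13, scaled -0.08), with 0 higher and 2 lower (20%) without overlap. The medians of this group were -0.15 and -0.59 in CPEB4 GT/+ animals and -0.20 and -0.24 in WT animals.

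The autism risk genes, a list of 100 of which 79 were kept, split into 46 differences above 0 and 33 below (median 0.02), with 13 higher (16.5%) and 5 lower (6.33%) without overlap, beside 11.2% and 10.6% over all genes. The medians of the group were 0.05 and -0.001 in CPEB4 GT/+ animals, against -0.001 and -0.05 in WT animals. After scaling, 40 were above 0 and 39 below (median 0.001), with 7 higher and 4 lower without overlap, beside 9.27% and 16.2% over all genes. Setd5, a chromatin regulator, had scaled and unscaled differences of 0.47 and 0.29 (scaled unadjusted p = 0.0274), and its other probe set above the filter gave -0.27 and -0.23. Cntn4, an axonal adhesion protein, had ratios of -0.98 and -1.53 in CPEB4 GT/+ animals, against -0.95 and -0.67 in WT animals (difference -0.45, unadjusted p = 0.125). Its other probe set, also above the filter, gave -0.04.

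Spliceosome, SR and hnRNP genes were below 0 in 49 of 74 cases (median -0.10, scaled -0.02). Members without overlap numbered 9 higher (12.2%) and 4 lower (5.41%), and 5 and 5 after scaling. Over all genes these shares were 11.2% higher and 10.6% lower, and 9.27% and 16.2% after scaling. The spliceosome group medians were -0.21 and -0.71 in CPEB4 GT/+ animals and -0.47 and -0.35 in WT animals. Replication-dependent histones, whose mRNAs mostly lack a poly(A) tail, were below 0 in 8 of 10 cases, though with a median of -0.035, about that of all genes. After scaling 6 of 10 were above 0 (median 0.12), with 3 higher and 0 lower without overlap. Their medians in the unscaled ratio were -0.30 and -1.21 in CPEB4 GT/+ animals and -0.65 and -0.57 in WT animals. Immediate early genes were evenly divided, 13 above and 13 below 0 (median -0.001). In all 3 groups CPEB4 GT/+ animal 1 had the highest and animal 2 the lowest median of the 4 animals.

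Markers of striatal projection neurons were the only group with a lower median in both CPEB4 GT/+ animals, in the unscaled and in the scaled ratio, and the gap was small. The medians were -0.11 and -0.21 in CPEB4 GT/+ animals, against -0.07 and -0.05 in WT animals, with 12 of 25 members above 0 and 13 below. The median difference was -0.02, against -0.03 over all genes. Members without overlap numbered 6 higher (24%) and 3 lower (12%), and 1 and 4 after scaling. Over all genes the shares without overlap were 11.2% higher and 10.6% lower, and 9.27% and 16.2% after scaling. Cortical excitatory neuron markers had 13 of 29 above 0 (median -0.02), and astrocyte markers 11 of 27 (median -0.03). Microglial markers had 5 of 20 above 0 (median -0.11), with 0 higher and 5 lower (25%) without overlap, and 2 and 6 after scaling. Tyrobp, an adaptor of microglial receptors, had ratios of -1.29 and -2.94 in CPEB4 GT/+ animals, against -1.65 and -0.94 in WT animals. Oligodendrocyte markers had 5 of 26 above 0 (median -0.15), with 1 higher (3.85%) and 3 lower (11.5%) without overlap. The INPUT levels of these markers were lower in CPEB4 GT/+ by a median of -0.19. Evi2a, one of them, had ratios of -0.83 and -1.22 in CPEB4 GT/+ animals, against -0.47 and -0.58 in WT animals (difference -0.50, unadjusted p = 0.0375; -0.40 scaled).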

How the data were processed

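The deposited table holds log2 values that the authors made with RMA, per the submitters' processing notes; no version is given in the sources used here. Probe set names in the table carry the PM mark of a design other than the PrimeView array that the labels name. Of 45141 probe sets, 28898 had 1 gene symbol in the platform's annotation, 551 had several and 15692 had none; names were checked against RefSeq by Entrez identifier (28689 matched). The probe set with the highest mean over 18 arrays stood for each of 17097 genes, and the lowest 25% (filter level 5.52) were left out, which kept 12822, of which 6407 had more than 1 probe set.

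Per animal and gene, log2 ELUTED minus log2 WASH was fitted with limma 3.58.1 in R 4.3.3 (lmFit, contrasts.fit, eBayes without trend), with 6 animals sharing 1 spread and 3 residual degrees of freedom. Tests were two-sided, and the call was an adjusted p under 0.05 (Benjamini-Hochberg, all kept genes). The fit was repeated on ratios scaled about each animal's median. The number of arrays limits the precision, and the code was tested on simulated data. Named genes were Cpeb4; in each ratio, of genes whose animals did not overlap and whose difference reached 0.58, those smallest in unadjusted p, at most 10 a direction; and, of groups with at least 5 kept genes, the 2 members with the largest differences in each ratio, some of which are only counted. The genes and lists were chosen with earlier results of these data known.

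Alternatives were other summaries of a gene's probe sets, filters, array normalizations, INPUT in place of WASH, other scalings, a replicate block, other fits and each animal left out.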

Additional observations from a re-analysis of the deposited data

How the results depend on the processing

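The count of called genes was 0 in the unscaled ratio under every alternative run, animals left out included, and 0 in the scaled ratio, except that leaving out 1 animal gave 0 to 1, the 1 being Hcrt without WT animal 2 (limma). Unadjusted p under 0.05 was met by 3655 genes in the unscaled ratio without CPEB4 GT/+ animal 1, with a smallest adjusted p of 0.0543, and by 200 without CPEB4 GT/+ animal 2; with arrays aligned on the hybridisation controls it was met by 6 genes unscaled and 4 scaled. The difference in spread across genes ran from -0.039, without CPEB4 GT/+ animal 2, to 0.34, and the difference in median ratio from -0.106 to 0.041, the highest again without that animal. The median difference also turned to 0.01 without the filter, 0.022 aligned on the hybridisation controls and 0.01 with INPUT in place of WASH. The scaled difference of Cpeb4, near 0, turned to 0.13 with the mean of its probe sets, 0.015 without the filter, 0.022 on the hybridisation controls, 0.025 with INPUT, 0.019 with slopes in place of SDs and 0.004 with quantile-normalized ratios. With INPUT in place of WASH, Hgh1 turned to 0.13 unscaled and 0.25 scaled, Aurka to 0.018 unscaled, Rsrc1 to 0.03 scaled and Atf3 to -0.10 scaled; the cause was not tested. Of 1604 values of named genes under the alternatives, 1576 kept their direction. Many of these could not have changed. Genes named for having no overlap keep the direction of their unscaled difference when 1 animal is left out. Leaving out a CPEB4 KO animal does not alter any unscaled difference. The count is therefore not a measure of how stable the differences are. Signal over background limits Timm9, Irx6, Nudt5, Lratd2, Gimap1 and 1700007K13Rik, whose mean levels of 5.55 to 5.80 lie near the nonspecific controls. It also limits Pmch in CPEB4 GT/+ animals and WT animal 2, and Hcrt, whose WASH levels were 5.96 and 5.74 in CPEB4 GT/+ animals.

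Leaving out 1 animal in turn gave, over named genes that changed direction, unscaled differences of -0.93 to 0.22 for Cpeb4, -1.76 to 0.35 for Uqcrb, -1.47 to 0.084 for Rpl12, -1.59 to 0.17 for Mrpl50, -2.40 to 0.32 for Psmb7, -0.071 to 0.54 for Pabpc1, -0.41 to 0.23 for Ern1, -1.64 to 0.003 for Tyrobp and -0.14 to 2.77 for Pmch. Scaled differences ran from -0.26 to 0.18 for Cpeb4, -0.011 to 0.74 for Zfp280d, -0.64 to 0.29 for Uqcrb, -1.005 to 0.16 for Mrpl50, -1.18 to 0.27 for Psmb7, -0.14 to 0.70 for Pabpc1 and -0.39 to 0.46 for Nlgn1. Whether the replicate numbers pair the animals could not be settled, because the unscaled deviations also carry the unequal spread of the animals. The replicate deviations correlated across genes at -0.33 between CPEB4 GT/+ and WT, -0.28 between CPEB4 KO and WT, and 0.51 between CPEB4 GT/+ and CPEB4 KO. In the scaled ratio these were -0.09, -0.12 and 0.18, in the same order. With the replicate block, 0 genes were called in either ratio, and 143 unscaled and 363 scaled had an unadjusted p under 0.05.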
